A study of Mus musculus with 23 samples.

Results

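Respiratory complex I, or NADH dehydrogenase, is built mostly from subunits whose genes lie in the nucleus. A list of 36 such mouse genes was followed here in colon mucosa of wild type (WT) and PPARα knockout (KO) mice on a diet with or without heme. Each gene was read at the probe set annotated to it, and where it had more than 1, at the probe set with the highest mean over the arrays. A probe set of their own was found for 35 of the 36 genes, out of 18820 genes measured this way. The remaining gene, Ndufa13, is covered only by probe sets that it shares with Tssk6, and it is described apart from the counts.

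Scraped colon mucosa from 23 male mice was hybridised to whole-transcript Affymetrix arrays on a single plate, 1 array per mouse. WT mice were of the strain 129S1/SvImJ and KO mice were 129S4/SvJae-Pparatm1Gonz/J, in which Ppara is disrupted in the germ line and so in every cell type. The mice were 7 to 9 weeks old at the start and ate a Westernized diet for 14 days, in which fat supplied 40% of the energy and calcium was 30 µmol per g, either as such (control) or with 0.5 µmol heme per g. On the control diet there were 5 WT and 6 KO mice, and on the heme diet 6 of each, since the study left out 1 WT control array for its quality. The substrains differ too, so that wherever KO is set against WT mice, genotype and substrain cannot be told apart, and p-values measure the spread between single mice.

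Expression was deposited on the log2 scale for each probe set after Robust Multi-array Average (RMA), a normalisation that gives all arrays the same distribution, and the array medians lay between 5.8 and 5.9. Array signals have no read depth, and their precision is limited by the number of arrays. Levels of different probe sets were not compared with each other. Ppara itself had a mean log2 level of 8.95 ± 0.15 (SD, n = 5) in WT mice on the control diet and 8.26 ± 0.22 (SD, n = 6) in KO mice on that diet. With heme it was 8.69 ± 0.16 (SD, n = 6) in WT and 7.63 ± 0.23 (SD, n = 6) in KO mice. Its highest KO mouse lay below its lowest WT mouse on each diet. Whether this probe set lies within the disrupted stretch of Ppara was not examined. In the WT control group, replicates 1 and 2 stood apart by the mean log2 level of 14 smooth muscle markers, at 0.54 and 0.88 above the group mean, whereas the lowest mouse of that group lay at -0.62.

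Complex I takes electrons from NADH and passes them over a flavin and a chain of iron-sulfur clusters to ubiquinone, while it pumps protons across the inner mitochondrial membrane. Its peripheral arm, which reaches into the matrix, carries the flavin and the clusters, and its membrane arm carries the proton pumps, whose central subunits are encoded by mitochondrial DNA. Accessory subunits surround this core and are needed for assembly and stability. In the colon, epithelial cells at the crypt surface rely on mitochondrial oxidation of butyrate, a product of bacterial fermentation.

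Promoter windows were searched because nuclear genes of the respiratory chain are known to be bound by the factors NRF1, GABPA of the ETS family, YY1 and ESRRA. RefSeq windows of assembly GRCm38.p6, with 250 bases before and 50 bases after the transcription start, were given for 33 of the 36 members (35 windows). Both strands were searched, and a motif letter string counted once per window. The YY1 string AAGATGGCG was held by 5 of the 33 members, which is 15.2%, compared with 1.4% of all 32851 windows and 1.97% of the 18155 windows of measured genes. All 5 copies lay on the gene's own strand and began at positions 23 to 36, counted from 1 at the transcription start, and the string contains an ATG. These are shown, with the YY1 string in capitals, because no other string searched was as much more frequent in the members than in the measured genes.

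Ndufs7 (chr10:80249463-80249486, + strand): ggccgaggccAAGATGGCGgcgct
Ndufs4 (chr13:114388046-114388069, - strand): tgcctacaggAAGATGGCGgcggt
Ndufs6 (chr13:73328436-73328459, - strand): ggtcaccggcAAGATGGCGgcggt
Ndufa9 (chr6:126849102-126849125, - strand): attgtgggagAAGATGGCGgccgc
Ndufc1 (chr3:51408920-51408943, - strand): cctgcggaacAAGATGGCGccgtc

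The NRF1 string GCGCATGCG was found in 2 members (6.06%), compared with 1.75% of all windows and 2.56% of those of measured genes. In Ndufa11 it read on both strands, in overlapping copies that start 60 and 59 bases before the transcription start, and in Ndufa8 it started 9 bases before it on the opposite strand. The ETS string CCGGAAG was found in 4 members (12.1%), namely Ndufs3, Ndufs8, Ndufb6 and Ndufb7, and equally in 12.1% of windows of measured genes. At least 1 of the NRF1, ETS, YY1 and ESRRA strings was held by 11 of 33 members (33.3%), against 15.9% of windows of measured genes and 11.7% of all windows. The upstream NRF1 and ETS copies follow, with the matching letters in capitals.

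Ndufa11, NRF1 (chr17:56717682-56717731, + strand): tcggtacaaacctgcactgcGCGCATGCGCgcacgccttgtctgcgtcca
Ndufa8, NRF1 (chr2:36049339-36049367, - strand): cgcttgcgcgtcgctggagaCGCATGCGC
Ndufs3, ETS (chr2:90904727-90904763, - strand): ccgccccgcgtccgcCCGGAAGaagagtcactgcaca
Ndufb6, ETS (chr4:40279632-40279668, - strand): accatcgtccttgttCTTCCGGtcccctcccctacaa
Ndufb7, ETS (chr8:83566723-83566757, + strand): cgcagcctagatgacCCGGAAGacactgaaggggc

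The ESRRA string TCAAGGTCA was in no member window, and in 0.292% of the windows of measured genes. The string of 2 AGGTCA copies 1 base apart, which is bound by PPAR with RXR, was likewise in no member window, and it was in 0.0441% of the windows of measured genes, so that at these rates neither string would often be met in 33 windows. The SP family string GGGCGG was in 15 members (45.5%) and in 49.6% of windows of measured genes, and the NFY string CCAAT was in 10 members (30.3%) and in 37.5%. The median GC content of the member windows was 59.0%, with a range of 45.3% to 70.7%, beside 57.7% for measured genes. A match describes letters and is not a site that was shown to be bound. The 150 bases before the start are shown for Ndufa4, the member with the largest heme effect in WT mice, and for Ndufa6, the member with the lowest heme effect in KO mice. Neither window held an NRF1, ETS, YY1, ESRRA or PPAR string, and capitals mark the CCAAT of Ndufa6.

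Ndufa4 (chr6:11907451-11907600, - strand): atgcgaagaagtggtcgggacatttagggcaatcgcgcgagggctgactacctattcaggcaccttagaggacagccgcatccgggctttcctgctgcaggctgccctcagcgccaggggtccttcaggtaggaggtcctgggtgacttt
Ndufa6 (chr15:82354292-82354441, - strand): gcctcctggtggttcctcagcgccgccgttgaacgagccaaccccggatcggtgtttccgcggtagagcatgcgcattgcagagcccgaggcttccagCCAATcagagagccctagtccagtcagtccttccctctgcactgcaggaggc

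The first question was how the heme diet changed the complex I genes in each genotype. Heme-fed WT mice had higher levels of 25 of the 35 measured members than WT control mice, and no member was lower. In the same comparison 12 of 14 smooth muscle markers were lower (median log2 fold change -1.14), and with their mean level as a covariate 9 members were called. These were 8 of the 25 (Ndufs8, Ndufa5, Ndufa8, Ndufs5, Ndufb6, Ndufb8, Ndufb10 and Ndufa4) and Ndufv1, so that the other 17 WT calls were lost with this covariate. The median log2 fold change of the members in WT mice was 0.27 with the covariate and 0.32 without it. In WT mice the smooth muscle level did not overlap between the diets. Heme-fed KO mice had higher levels of 23 of the 35 than KO control mice, and again no member was lower, with 1 of 14 smooth muscle markers lower (median -0.50). A gene was called where limma gave a Benjamini-Hochberg adjusted p below 0.01 over all 18820 genes and its mean linear signal exceeded 20 in at least 1 of the groups compared, and all 35 members exceeded this signal. Over all genes, 9.6% were called higher and 8.29% lower in WT mice, and 9.23% were called higher and 9.2% lower in KO mice. The loss of WT calls with the smooth muscle covariate was not particular to the members. Among all genes, the WT calls went from 1806 to 646 higher and from 1561 to 539 lower. When arrays were centred on their medians, the split over all genes in KO mice moved from 1738 higher and 1731 lower to 2013 higher and 1175 lower, and 24 members were then called higher and none lower.

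The changes were small. The median log2 fold change of the members was 0.32 in WT mice, with a range of 0.06 to 0.81, and 0.25 in KO mice, with a range of -0.03 to 0.63, whereas the median of all genes was -0.01 in both. All 35 members had a log2 fold change above 0 in WT mice and 33 had one in KO mice. In 22 members all 6 heme-fed WT mice lay above all 5 WT control mice, and 20 members showed such a separation in KO mice, which was met in 8.21% and 7.3% of all genes. In both genotypes 19 members were called. Ndufs1, Ndufs4, Ndufs6, Ndufa2, Ndufb3 and Ndufab1 passed in WT mice alone, and Ndufv1, Ndufv3, Ndufa12 and Ndufb11 in KO mice alone, but the difference between the genotypes was not significant for any of them, as described further on. Ndufa6, Ndufa7, Ndufa1, Ndufa3, Ndufb2 and Ndufb4 were called in neither genotype. In bulk tissue, a larger share of cells rich in mitochondria and more RNA per cell cannot be told apart.

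**Figure D1:**
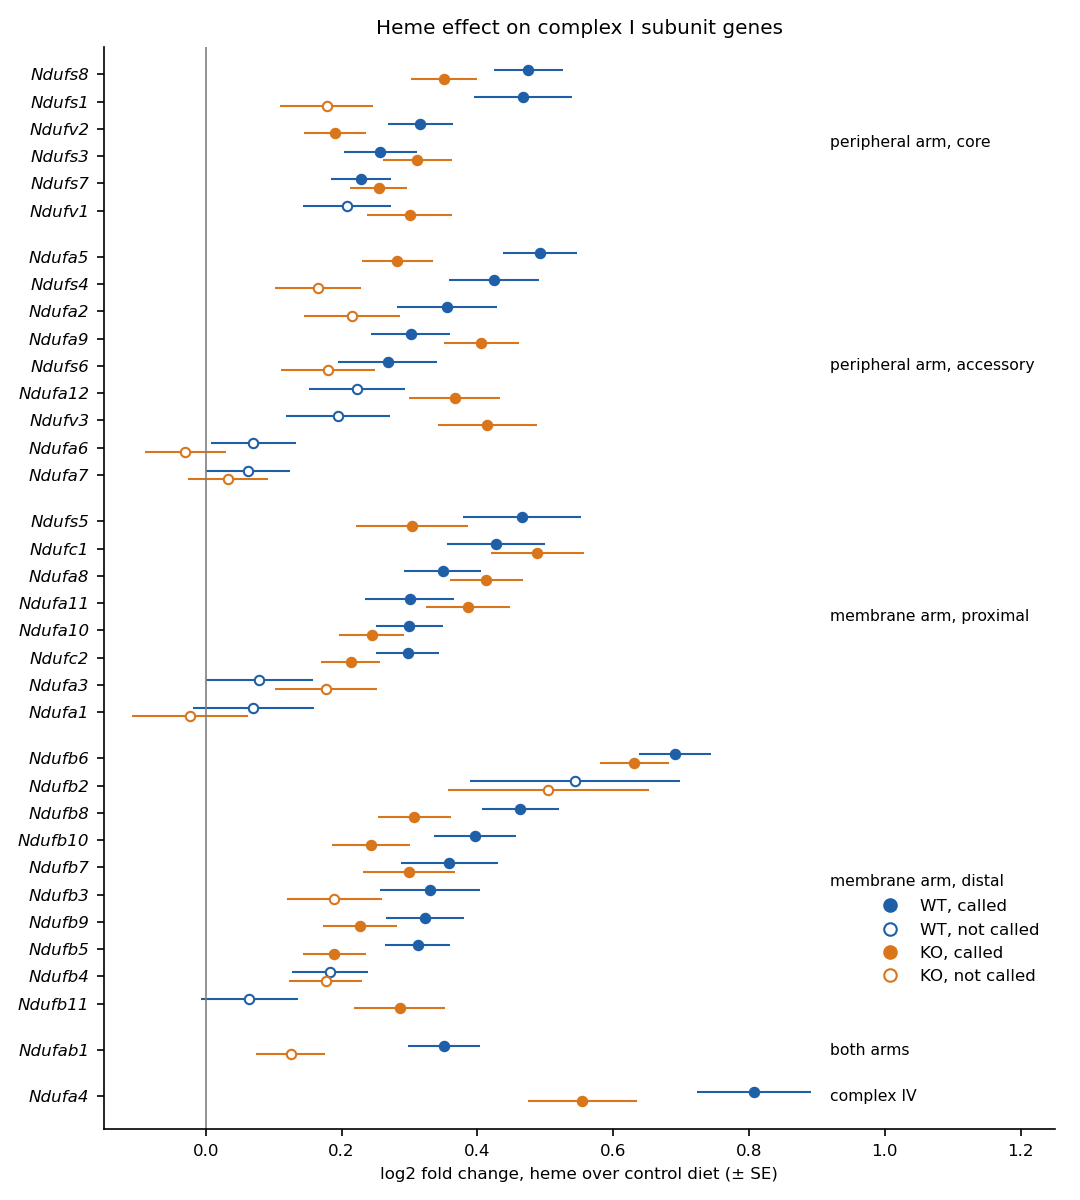
Heme effect, as the log2 fold change over the control diet (x axis), for each of the 35 measured members, ordered by role, with WT in blue and KO in orange, with bars of 1 SE and filled points for called members. Ndufa4 and Ndufb6 stand farthest to the right in both genotypes, and Ndufa6, Ndufa7 and Ndufa1 lie near 0 in both.

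The core of the peripheral arm holds the flavin and the iron-sulfur clusters. Of its 6 measured subunits, 5 rose in WT mice and 5 rose in KO mice, with median log2 fold changes of 0.29 and 0.28. Ndufs8, which carries the iron-sulfur clusters that lead towards the quinone site, rose most of these in WT mice. Its log2 levels in the WT control mice were 10.31, 10.47, 10.54, 10.57 and 10.47, and those in WT heme mice had a lowest value of 10.83, a median of 10.97 and a highest of 11.05. In KO control mice its log2 level ran from 10.49 over a median of 10.53 to 10.56, and in KO heme mice from 10.77 over 10.92 to 10.94. Diet groups did not overlap in either genotype. The log2 fold change was 0.47 ± 0.05 (SE) in WT mice (limma, adjusted p = 5.33e-07) and 0.35 ± 0.05 in KO mice (adjusted p = 1.2e-05).

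Ndufv1, the subunit that binds the flavin and oxidises NADH, changed least among the core subunits in WT mice. WT control mice had log2 levels of 10.09, 10.07, 9.92, 9.85 and 9.87, and WT heme mice reached from 10.003 over a median of 10.20 to 10.26. KO control mice ran from 9.66 over 9.86 to 9.95, and KO heme mice from 9.96 over 10.16 to 10.28. The diet groups overlapped in WT mice and were separate in KO mice. The log2 fold change in WT mice, 0.21 ± 0.07 (SE), was not called (limma, adjusted p = 0.0196), and that in KO mice, 0.30 ± 0.06, was called (adjusted p = 0.000796). WT control replicates 1 and 2 were the highest of their group for Ndufv1, and with both left out the gene was called in WT mice too, at 0.29.

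The remaining 4 core subunits passed the test in both genotypes except for Ndufs1 in KO mice. Ndufs1, the largest subunit of the arm and a carrier of several iron-sulfur clusters, had log2 fold changes of 0.47 in WT mice (called) and 0.18 in KO mice (limma, adjusted p = 0.055). Ndufv2, which holds an iron-sulfur cluster beside the flavin, had 0.32 and 0.19, both called. Ndufs3 had 0.26 and 0.31, and Ndufs7, which lies at the quinone site, had 0.23 and 0.25, with all 4 values called.

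Among the 9 accessory subunits of the peripheral arm, 5 rose in WT mice and 4 in KO mice, with median log2 fold changes of 0.27 and 0.22. Ndufa5 had the largest change of them in WT mice. Its WT control mice had log2 levels of 7.00, 6.97, 7.04, 6.98 and 6.95, and WT heme mice ran from 7.39 over a median of 7.45 to 7.70. On the control diet, KO mice ran from 6.93 over 6.99 to 7.10, and KO heme mice from 7.18 over 7.27 to 7.43. Heme-fed mice lay above control mice without overlap in both genotypes. The log2 fold changes were 0.49 ± 0.05 (SE; limma, adjusted p = 9.26e-07) in WT mice and 0.28 ± 0.05 (adjusted p = 0.000264) in KO mice.

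Ndufa7 lay at the other end. Its WT control log2 levels were 8.79, 8.83, 9.06, 9.04 and 9.08, and its WT heme levels ran from 8.90 over a median of 9.02 to 9.13. Among KO control mice the values ran from 8.92 over 9.02 to 9.07 and KO heme mice from 8.90 over 9.03 to 9.21. All 4 groups overlapped. The log2 fold changes of 0.06 ± 0.06 (SE) in WT mice and 0.03 ± 0.06 in KO mice were not called (limma, adjusted p = 0.513 and 0.746).

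Ndufs4, whose loss in mice gives a model of Leigh syndrome, had log2 fold changes of 0.42 in WT mice (called) and 0.17 in KO mice (limma, adjusted p = 0.0546). Ndufs6, which binds zinc, had 0.27 in WT mice (called, adjusted p = 0.00759) and 0.18 in KO mice (adjusted p = 0.055). Of the members called in WT mice, Ndufs6 was the only one whose call depended on single mice, and it was lost without any of 7 of the 23 arrays. Ndufa2 had 0.36 in WT mice (called) and 0.22 in KO mice (adjusted p = 0.0241). Ndufa9, which binds NADPH, rose by 0.30 and 0.41, both called. In the opposite order, Ndufa12 had 0.22 in WT mice (adjusted p = 0.021) and 0.37 in KO mice (called), and Ndufv3 had 0.19 in WT mice (adjusted p = 0.0602) and 0.41 in KO mice (called). Ndufa6, which anchors the acyl carrier protein to the arm, had 0.07 and -0.03, and neither was called.

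The proximal part of the membrane arm connects the quinone site to the proton pumps. Of its 8 measured accessory subunits, 6 rose in WT mice and the same number rose in KO mice, with median log2 fold changes of 0.30 and 0.27. Ndufs5 faces the intermembrane space and had the largest WT change of them. Its log2 levels were 6.43, 6.41, 6.34, 6.04 and 6.23 in WT control mice, and they ran from 6.51 over a median of 6.79 to 6.88 in WT heme mice. The KO control mice ran from 6.19 over 6.30 to 6.49 and KO heme mice from 6.35 over 6.68 to 6.77. The diet groups were separate in WT mice and overlapped in KO mice. The log2 fold changes were 0.47 ± 0.09 (SE; limma, adjusted p = 0.000304) in WT mice and 0.30 ± 0.08 (adjusted p = 0.00731) in KO mice. The KO call was lost without any of 8 of the 23 arrays, 4 of KO control and 4 of KO heme mice, with log2 fold changes of 0.27 to 0.31.

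Ndufa1, a small subunit encoded on the X chromosome, changed least in WT mice within this part. Its WT control log2 levels were 7.03, 7.14, 7.33, 7.42 and 7.02, and WT heme mice ran from 7.14 over a median of 7.23 to 7.51. KO control mice ran from 7.12 over 7.25 to 7.43 and KO heme mice from 7.00 over 7.23 to 7.52. The groups overlapped throughout, and the log2 fold changes of 0.07 ± 0.09 (SE) and -0.02 ± 0.08 were not called (limma, adjusted p = 0.63 and 0.884). Ndufa3 was not called either, with 0.08 in WT mice and 0.18 in KO mice. Ndufc1 (0.43 and 0.49), Ndufa8 (0.35 and 0.41), Ndufa11 (0.30 and 0.39), Ndufa10 (0.30 and 0.24) and Ndufc2 (0.30 and 0.21) were called in both genotypes. Ndufa8 belongs, like Ndufs5, to the subunits with paired cysteine motifs that fold in the intermembrane space, and Ndufa11 is related to the inner membrane import proteins of the Tim17 family.

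The distal part of the membrane arm, made of the Ndufb subunits, held 10 measured members, of which 7 rose in WT mice and 7 in KO mice, with median log2 fold changes of 0.34 and 0.26. Ndufb6 rose most in both genotypes. WT control mice had log2 levels of 9.52, 9.52, 9.60, 9.58 and 9.55, and WT heme mice ran from 10.13 over a median of 10.25 to 10.35. On the control diet, KO mice ran from 9.44 over 9.53 to 9.63 and KO heme mice from 10.05 over 10.15 to 10.32. The gap between the diet groups was wider than the spread within any group. The log2 fold changes were 0.69 ± 0.05 (SE; limma, adjusted p = 3.87e-09) in WT mice and 0.63 ± 0.05 (adjusted p = 6.35e-09) in KO mice, which is a 1.61-fold and a 1.55-fold level.

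Ndufb11, also X-linked, was the distal subunit with the smallest WT change. WT control mice had log2 levels of 10.25, 10.38, 10.39, 10.49 and 10.47, and WT heme mice ran from 10.31 over a median of 10.43 to 10.66. Among KO control mice the values ran from 10.26 over 10.31 to 10.51 and KO heme mice from 10.45 over 10.66 to 10.78. Diet groups overlapped in both genotypes. The log2 fold change was 0.06 ± 0.07 (SE; limma, adjusted p = 0.565) in WT mice and 0.29 ± 0.07 (adjusted p = 0.00246) in KO mice.

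Ndufb2 had the second largest log2 fold change of the distal subunits, 0.54 in WT and 0.50 in KO mice, but its SE of 0.16 and 0.15 was the largest of any member, and it was not called (limma, adjusted p = 0.0105 and 0.0122). Its WT control mice spread from a log2 level of 6.57 to 7.53. Ndufb8 (0.46 and 0.31), Ndufb10 (0.40 and 0.24), Ndufb7 (0.36 and 0.30), Ndufb9 (0.32 and 0.23) and Ndufb5 (0.31 and 0.19) were called in both genotypes. Ndufb10 and Ndufb7 carry paired cysteine motifs of the intermembrane space. Ndufb3 had 0.33 in WT mice (called) and 0.19 in KO mice (adjusted p = 0.0449), and Ndufb4 had 0.18 in both (adjusted p = 0.0165 and 0.0145).

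Ndufab1, the mitochondrial acyl carrier protein, sits in both arms and also serves fatty acid synthesis in the matrix. Its WT control log2 levels were 9.14, 9.11, 9.40, 9.30 and 9.32, and WT heme mice ran from 9.54 over a median of 9.57 to 9.73. The KO control mice ran from 9.29 over 9.34 to 9.43 and KO heme mice from 9.37 over 9.48 to 9.54. The diet groups were separate in WT mice and overlapped in KO mice. Heme gave a log2 fold change of 0.35 ± 0.05 (SE; limma, adjusted p = 3.6e-05) in WT mice and 0.13 ± 0.05 (adjusted p = 0.0687) in KO mice.

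Ndufa4 was first described with complex I and is now assigned to cytochrome c oxidase, complex IV. Its probe set gave log2 levels of 8.42, 8.60, 8.67, 8.75 and 8.52 in WT control mice, and from 9.17 over a median of 9.39 to 9.60 in WT heme mice. KO control mice ran from 8.73 over 8.77 to 8.88 and KO heme mice from 8.99 over 9.41 to 9.50. No heme-fed mouse reached down to the control mice of its genotype. The log2 fold changes of 0.81 ± 0.08 (SE; limma, adjusted p = 3.71e-07) in WT mice and 0.55 ± 0.08 (adjusted p = 1.99e-05) in KO mice correspond to a 1.75-fold and a 1.47-fold level. The WT value was the largest of the list, so that the member with the largest WT change is not a subunit of complex I in the present assignment.

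**Figure D2:**
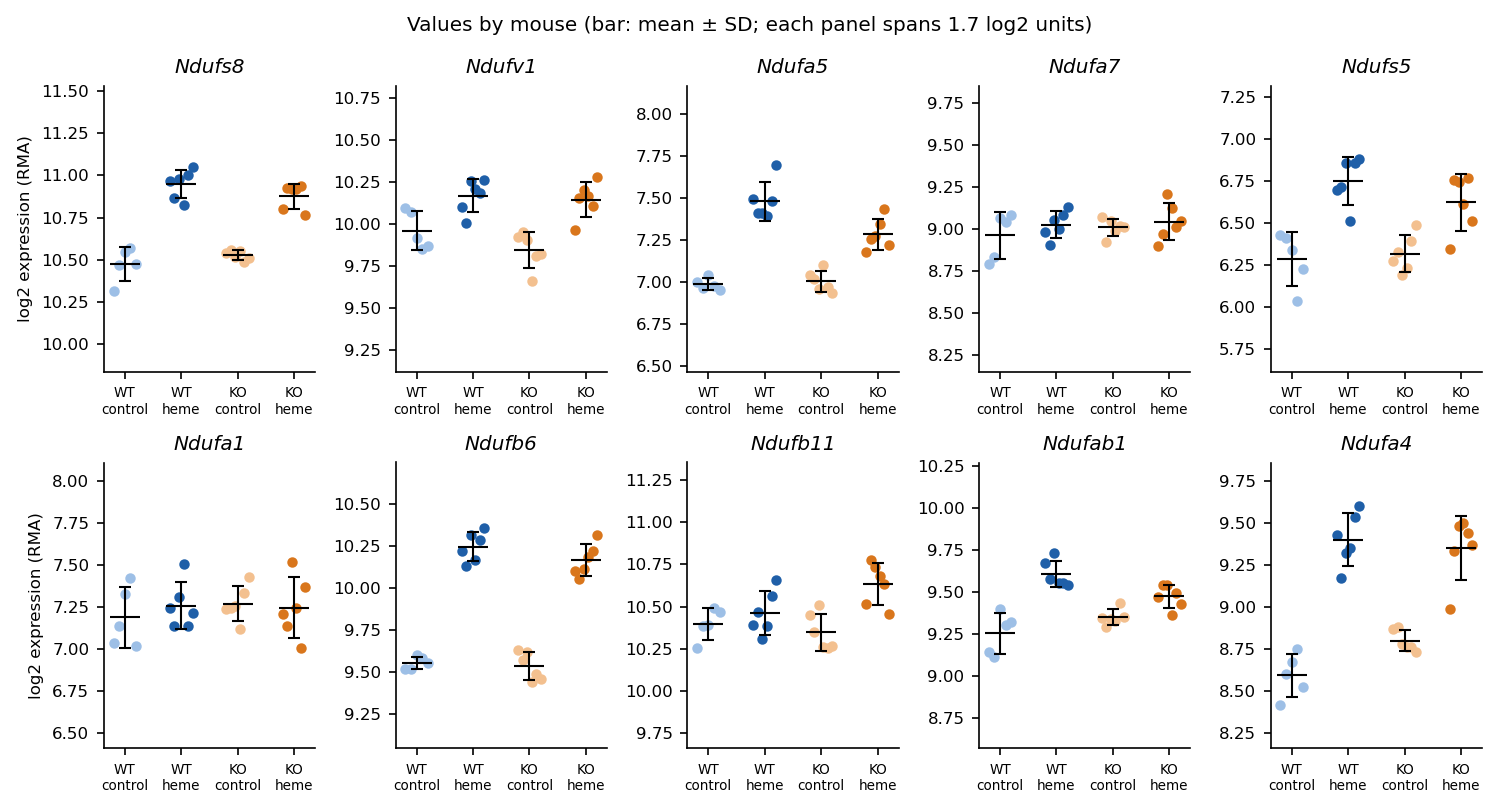
Log2 expression (y axis, RMA) of 10 members in each mouse, by genotype and diet, with bars at the mean and 1 SD above and below, and with the same span on every panel. The heme-fed mice of Ndufs8, Ndufa5, Ndufb6 and Ndufa4 lie above the control mice of their genotype, and the groups of Ndufa7 and Ndufa1 lie on top of each other.

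Some members were measured by more than 1 probe set. A second probe set of their own was present for 7 members, and 4 of these (Ndufs3, Ndufa11, Ndufc1 and Ndufab1) gave the same calls in both genotypes with either set. The second set of Ndufb4 had log2 fold changes of 0.21 and 0.19, both called, against 0.18 and 0.18, not called, at the brighter set. The second set of Ndufb5 had log2 fold changes of 0.01 and -0.02, not called, although the brighter set was called in both genotypes. The second set of Ndufb11 had -0.02 in WT mice and 0.19 in KO mice (limma, adjusted p = 0.026), so that its KO call was not repeated.

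Probe sets shared with another gene cannot be credited to the member alone. Ndufa13, also known as GRIM-19 and a subunit next to the quinone site, shares 2 sets with Tssk6, a kinase gene of the testis. The brighter of these had mean log2 levels of 7.73 ± 0.09 (SD, n = 5) in WT control, 7.88 ± 0.07 (SD, n = 6) in WT heme, 7.74 ± 0.06 (SD, n = 6) in KO control and 7.95 ± 0.14 (SD, n = 6) in KO heme mice. Its log2 fold change of heme was 0.15 in WT mice (limma, adjusted p = 0.0664) and 0.21 in KO mice (adjusted p = 0.0074, called), and the dimmer set had 0.07 and 0.11, not called. A set shared by Ndufs5 and the pseudogene Ndufs5-ps rose by 0.34 and 0.29, both called. A set shared by Ndufa8 and Morn5 had a mean log2 level near the bottom of the scale, 3.74 in WT control mice, and log2 fold changes of 0.05 and -0.04, not called.

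The second question was whether the complex I genes depended on PPARα. On the control diet, no member was called between KO and WT mice, and 0.0531% of all genes were called. No member was separate between the genotypes, and 0.893% of all genes were. At these shares neither would often be met among 35 genes. The median log2 difference of KO from WT control mice was 0.03 (range -0.13 to 0.21), and the smallest adjusted p was 0.779. This median was 0.0127 without WT control replicate 1, 0.0102 without replicate 2, 0.0551 without replicate 3 and -0.0269 with the smooth muscle level as a covariate. In the same comparison all 14 smooth muscle markers had a log2 difference below 0 (median -0.63, 12 at an unadjusted p below 0.05 and none called), and all 9 leukocyte markers had one above 0 (median 0.32, none called). At an unadjusted p below 0.05 there were 2 of the 35 members, a share near the 5.74% of all genes, namely Ndufa4 with 0.21 and Ndufb3 with 0.18, both higher in KO control mice.

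With heme in the diet, again no member was called. Of all genes 0.234% were called, a share at which a call would not often be met among 35 genes. The median log2 difference of KO from WT heme mice was -0.02 (range -0.26 to 0.20), and the smallest adjusted p was 0.082. This median was 0.0042 without KO heme replicate 1, -0.0085 without WT heme replicate 6, -0.0128 without WT heme replicate 3 and -0.0372 without KO heme replicate 3. At an unadjusted p below 0.05 there were 6 of the 35 members, against 12.2% of all genes, with Ndufs1 (-0.26), Ndufa5 (-0.20), Ndufs4 (-0.18) and Ndufab1 (-0.13) lower and Ndufv3 (0.20) and Ndufb11 (0.17) higher in KO mice. Ndufab1 was the only member without overlap between the genotypes, which occurred in 0.882% of all genes. Its highest KO heme mouse reached a log2 level of 9.5433 and its lowest WT heme mouse 9.5445 (two-sided exact permutation test, p = 0.00216, which no test of these group sizes can go below, among 56 such tests without adjustment). In Ndufs1, the KO heme mice ran from a log2 level of 9.69 over a median of 9.81 to 10.21, and the WT heme mice from 10.02 over 10.12 to 10.23. One KO heme mouse, replicate 6, decided the call of Ndufs1, which without it had a log2 difference of -0.33 (limma, adjusted p = 0.00426).

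The difference of the heme effect between the genotypes (the interaction) was called for no member. It was called for 0.0106% of all genes, a share at which a call would rarely be met among 35 genes. The interaction shares its groups with the comparisons above and adds no independent mice. The heme effect was larger in WT than in KO mice for 24 of the 35 members, with a median difference of -0.08 (KO minus WT, log2). The difference was above 0 in the other 11 members, and in 9036 of all 18820 genes (median -0.0055). The median of the members moved when mice were left out. It was -0.0488 without WT control replicate 1 and -0.0579 without WT control replicate 2. Similar values came without KO heme replicate 1 (-0.057) and without KO control replicate 1 (-0.0592), and it was -0.1045 without WT control replicate 3. Without WT control replicates 1 and 2 together, a pair chosen after seeing the data, it was 0.0038. With the smooth muscle level as a covariate it was -0.0168. The smooth muscle markers had a positive difference in 14 of 14 (median 0.54, none called). At an unadjusted p below 0.05 there were 7 of the 35 members, against 6.75% of all genes, and the smallest adjusted p was 0.549. The effect was smaller in KO mice for Ndufs1 (-0.29), Ndufs4 (-0.26), Ndufa4 (-0.25), Ndufab1 (-0.23) and Ndufa5 (-0.21), and larger for Ndufb11 (0.22) and Ndufv3 (0.22). The second probe set of Ndufab1 gave a difference of -0.24 and that of Ndufb11 gave 0.21. The 95% confidence intervals of the 35 members reached from -0.50 to 0.44, which is wider than the median heme effect of the list. For Ndufb6, whose heme effect in WT mice was the largest in relation to its SE, the difference was -0.06.

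**Figure D3:**
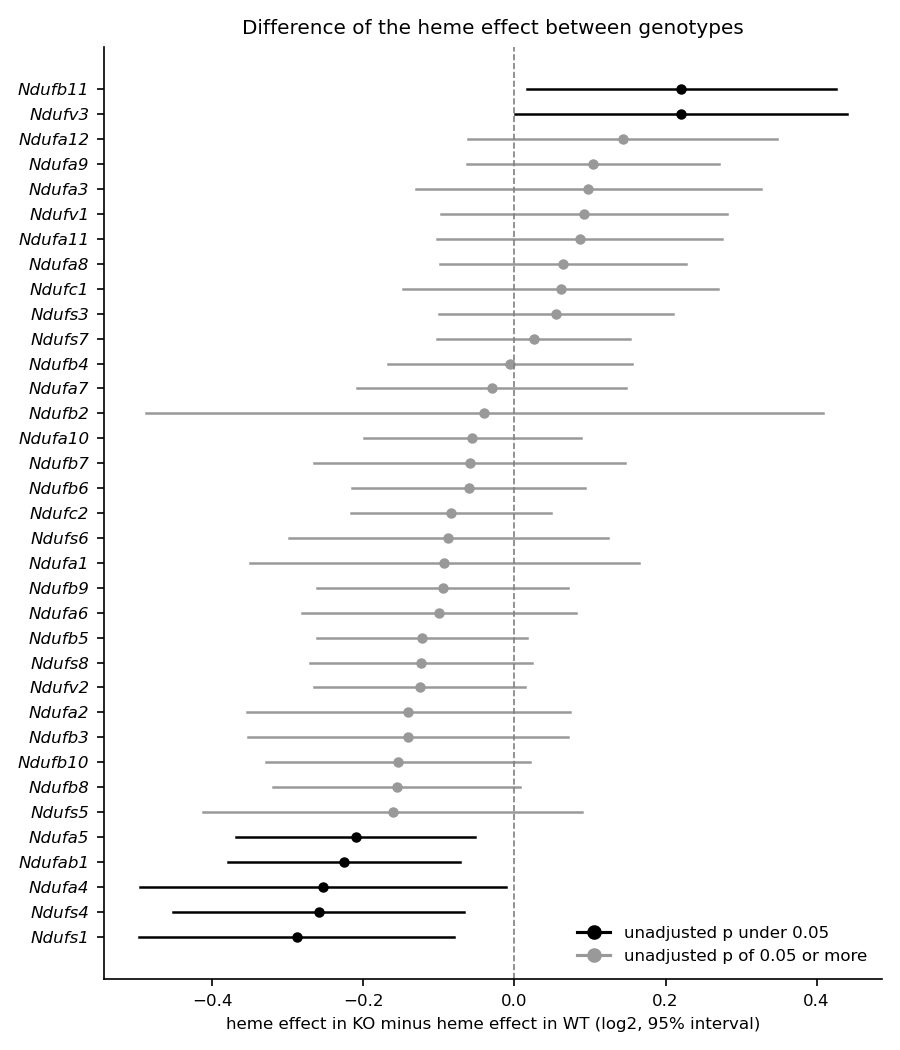
Difference of the heme effect, KO minus WT mice on the log2 scale (x axis), for each of the 35 measured members, with 95% confidence intervals. Black marks an unadjusted p below 0.05, with Ndufs1, Ndufs4, Ndufa4, Ndufab1 and Ndufa5 on the left and Ndufb11 and Ndufv3 on the right, and no member passed the adjustment over all genes.

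The changes of the complex I genes were set beside those of the genes that build and accompany the complex. Of 17 measured assembly factors, 7 rose in WT mice and 4 in KO mice, with no lower call and medians of 0.22 and 0.12 on the log2 scale. Ndufaf4 rose by 0.67 ± 0.10 (SE; limma, adjusted p = 3.46e-05) in WT mice and 0.51 ± 0.10 (adjusted p = 0.000321) in KO mice, and Foxred1 rose by 0.38 and 0.26. Ndufaf1 rose by 0.25 and 0.24, and Ndufaf3 had 0.33 (called) and 0.21 (not called). Complex II, succinate dehydrogenase, feeds electrons to the same quinone pool, and 3 of its 4 genes rose in both genotypes, by 0.42 and 0.42 for Sdhd, 0.37 and 0.35 for Sdhc and 0.37 and 0.34 for Sdhb. The flavin-binding Sdha was not called, at 0.12 in both. Of 10 further complex I genes, those of mitochondrial DNA included, only Ndufa4l2, a paralogue of Ndufa4, had a probe set of its own here, and its log2 fold changes of -0.08 and -0.03 were not called.

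Further mitochondrial genes were also higher. Of 46 genes of the large mitochondrial ribosome subunit, 34 rose in WT mice and 31 in KO mice (medians 0.31 and 0.27), and of 25 genes of the small subunit 15 and 10 rose (medians 0.36 and 0.20). Mrpl20 rose by 0.82 and 0.76. Of 13 genes of the outer membrane and of protein import, 12 rose in WT mice and 9 in KO mice (medians 0.36 and 0.34), with 0.69 and 0.68 for Tomm40, the import channel. Complex I members thus had a median near that of these lists, and the difference between lists was not tested. Of 10 measured regulators of respiratory genes, none was called higher, and Ppargc1a, a coactivator of mitochondrial genes, was the only one called, with log2 fold changes of -0.66 ± 0.11 (SE; limma, adjusted p = 0.000125) in WT mice and -0.85 ± 0.11 (adjusted p = 3.95e-06) in KO mice. Nrf1 (0.08 and 0.14), Gabpa (0.04 and -0.09) and Esrra (0.25 and 0.23) were not called.

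**Figure D4:**
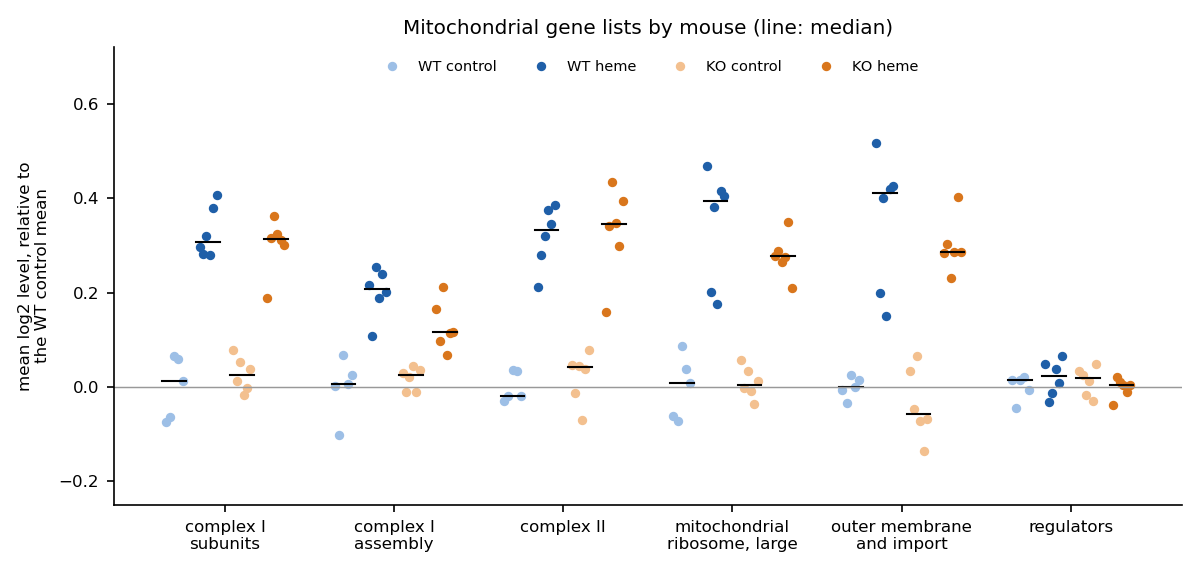
Mean log2 level of each gene list per mouse, relative to the mean of the WT control mice (y axis), with a line at the median of each group. Heme-fed mice lie above control mice of the same genotype for the complex I subunits, for complex II, for the large mitochondrial ribosome subunit and for the outer membrane and import genes, and the regulators lie near 0 in all 4 groups.

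The mean log2 level of the 35 members, relative to WT control mice, was between -0.07 and 0.06 in WT control, 0.28 and 0.41 in WT heme, -0.02 and 0.08 in KO control and 0.19 and 0.36 in KO heme mice. Diets were thus separate within each genotype and the genotypes overlapped on each diet. Across the 23 mice, after each group's mean was taken off, 458 of the 595 pairs of members had a correlation above 0, with a median of 0.27 and a range of -0.58 to 0.90. All these values come from the same arrays and share their normalisation. The correlation with the mean of the other members was highest for Ndufa7 (0.83) and Ndufs3 (0.83) and lowest for Ndufa2 (-0.22). Ndufa7, whose level did not differ detectably between the diets, was thus among the members that varied most with the others from mouse to mouse.

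Markers of the cell types in the scrapings moved as well. Epithelium was present in all groups, and of 12 epithelial markers 2 were higher and 2 lower in heme-fed WT mice (median 0.04), and 3 were higher and 2 lower in heme-fed KO mice (median 0.04). Their mean log2 level ran from -0.06 to 0.04 in WT control, from -0.001 to 0.12 in WT heme, from 0.01 to 0.07 in KO control and from -0.02 to 0.16 in KO heme mice. Krt20, a marker of differentiated surface cells, rose by 0.50 in WT mice and Vil1 by 0.32, and Epcam and Cdh1 fell by 0.18 and 0.17. Of 14 smooth muscle markers, 12 were lower in heme-fed WT mice (median -1.14) and 1 in heme-fed KO mice (median -0.50). Their mean log2 level ran from -0.62 to 0.88 in WT control, from -1.30 to -0.77 in WT heme, from -1.39 to -0.17 in KO control and from -1.45 to -0.82 in KO heme mice. One of 9 leukocyte markers (Itgam) was lower in each genotype, and none of 6 fibroblast markers was called.

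The mean level of the complex I members, with group means taken off, correlated with the epithelial level at 0.74 and with the smooth muscle level at -0.44 over the 23 mice. With the smooth muscle level as a covariate, the median log2 fold change of the members was 0.27 in WT mice, and 17 of the 23 calls in KO mice remained, at a median of 0.25. In WT mice the diet groups did not overlap in the smooth muscle level, and the highest WT heme mouse lay at -0.77 and the lowest WT control mouse at -0.62. With the epithelial level as a covariate, 18 members were called in WT mice and 16 in KO mice, at medians of 0.25 and 0.25. Without WT control replicates 1 and 2, 21 members were called in WT mice, 19 of them among the 25, at a median of 0.28. Over all genes, 1806 were called higher in WT mice and 1738 in KO mice without a covariate. These counts were 646 and 1445 with the smooth muscle level and 887 and 1290 with the epithelial level as a covariate. Without the 2 WT control mice, 997 genes were called higher in WT mice. The part of cell composition in the levels of the complex I genes was not tested beyond these values.

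**Figure D5:**
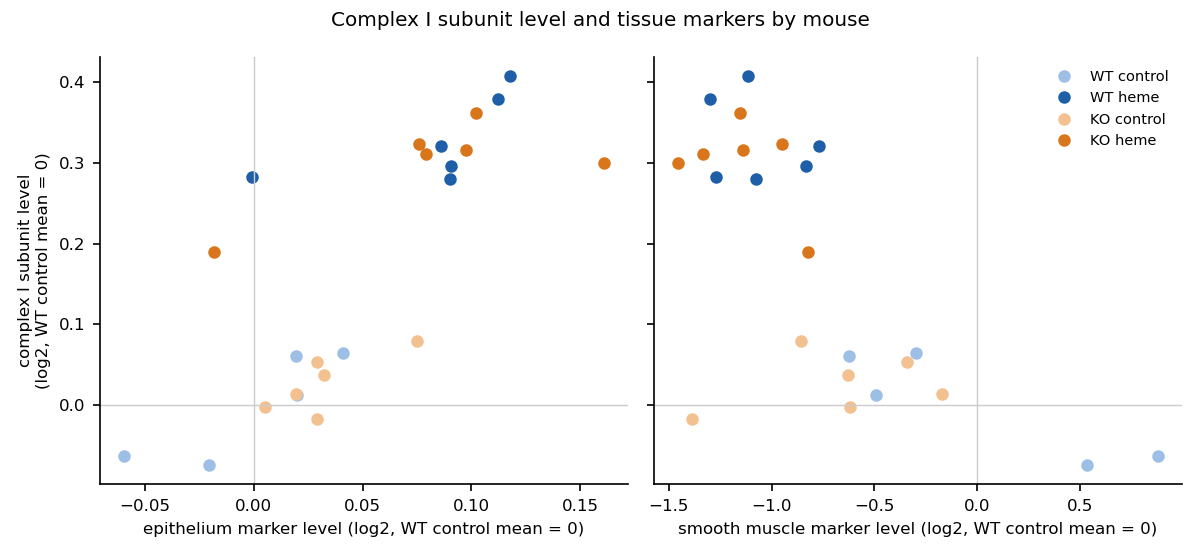
Mean log2 level of the 35 measured members (y axis) against the mean log2 level of epithelial markers (left) and smooth muscle markers (right), 1 point per mouse, with the WT control mean set to 0. The heme-fed mice of both genotypes lie above all control mice, and the 2 WT control mice with the highest smooth muscle level have the lowest complex I level.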

How the data were processed

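Per the labels and the study's methods, total RNA (100 ng per mouse) was hybridised to Affymetrix Mouse Gene 1.1 ST arrays, and the authors normalised all arrays together by RMA (version not given in the sources used here). The deposited log2 values, 1 per probe set and array, were used as given. The study names reorganised probe sets, whereas the identifiers here are Affymetrix transcript clusters, so the probes behind a gene can differ. Normalisation to a common distribution removes a change shared by all genes.

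Of 35556 probe sets, 21218 carried 1 gene symbol, 1881 several and 12457 none. Current symbols were looked up in a RefSeq table through Entrez numbers (21185 matched), and the brightest probe set of each gene over 23 arrays gave 18820 genes. Members of the complex I list, the other lists and the tests were chosen with earlier results of these data known. All members were named, and the largest and smallest WT heme effect of each role group, Ndufab1 and Ndufa4 were given in full. Of each other list up to 4 called genes with the largest mean heme effect could be named, and the regulators and cell markers named beyond this were chosen after their values were seen.

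The 4 groups were fitted together with limma 3.58.1 (R 4.3.3), which moderates variances across genes, and p-values were adjusted over 18820 genes (Benjamini-Hochberg). Single members were compared by two-sided exact permutation tests in Python 3.11.15 with numpy 2.4.6, pandas 2.3.3 and scipy 1.17.1, and figures were drawn with matplotlib 3.10.9. The fit was tested on simulated data. Promoter windows and their coordinates came from RefSeq, GRCm38.p6. No windows were given for Ndufa2, Ndufb9 and Ndufs1. Alternatives were centring of arrays, averaged or all probe sets, no signal filter, a threshold of 0.05, other variance models, array weights, separate fits, the replicate number as a block, linear signal, marker levels as covariates and each array left out. The study's other arrays and its tissue measurements were not used here.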

Additional observations from a re-analysis of the deposited data

Results flagged for a closer look

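Of 44 groups of 5 or 6 mice tested for an outlying value among the members described in full and the mean level of the list, 3 held a mouse far from the others, and chance flags about 1 group in 20. In Ndufa5, WT heme replicate 6 was the highest of its group at a log2 level of 7.6989, and the next mouse lay at 7.4926. In Ndufa4, KO heme replicate 1 was the lowest of its group at a log2 level of 8.9869, below the next at 9.3331. The same mouse had the lowest mean log2 level of all 35 members among KO heme mice, 0.1889 above the WT control mean, against 0.2999 in the next mouse. Without this mouse the log2 fold change of Ndufa4 in KO mice was 0.63 and was still called, and 24 members were called in KO mice in place of 23. Without WT heme replicate 6 the log2 fold change of Ndufa5 in WT mice was 0.45 and was still called.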

How the results depend on the processing

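No alternative turned the direction of a called heme effect of a member given in full, and none gave a lower call of any member in either genotype. The number called with the heme diet was 29 in WT and 27 in KO mice at an adjusted p below 0.05, and 28 and 26 with array weights. Over all genes, the higher calls went from 1806 in WT and 1738 in KO mice to 2614 and 2485 at 0.05. With array weights they were 2241 and 1983. Separate fits of only the groups compared gave 22 members in WT and 23 in KO mice. Of all genes, 1366 and 1537 were called higher in these fits. With the smooth muscle level as a covariate 9 members were called in WT mice, and 646 of all genes were called higher. The medians of the members for KO against WT mice on the control diet and for the interaction then moved to -0.0269 and -0.0168. With the epithelial level as a covariate, chosen after seeing the data, the WT median moved to 0.25, and with the 2 WT control arrays of highest smooth muscle level both left out, also chosen after seeing the data, the median of the interaction moved to 0.0038. The cause of these shifts was not tested. Leaving out each array in turn gave 24 to 26 members in WT mice, 22 to 24 in KO mice, 0 to 1 for KO against WT mice on the heme diet (Ndufs1, without KO heme replicate 6) and 0 in the other comparisons. For the members given in full, counting each member, genotype and setting separately, a call was lost in 15 cases and gained in 5. These concerned Ndufs5 and Ndufb11 in KO mice and Ndufab1 and Ndufv1 in WT mice. With the replicate block, 24 members were called in WT mice and 23 in KO mice. Deviations of same-numbered mice correlated between -0.27 and 0.29, above 0.1 in 6 of 22 pairs. The labels do not say what the replicate number stands for, and whether same-numbered mice share anything else was not tested. Weak signal limits the dimmest probe sets, such as the one shared by Ndufa8 and Morn5.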
